A study of Homo sapiens with 12 samples.

Results

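The genes of the circadian clock described here are PER1, PER2, PER3, CRY1, CRY2, ARNTL, CLOCK, NR1D1, NR1D2 and DBP, 10 of the 57773 genes of the count table, each found there by its symbol. They were chosen by their place in the clock, with measured values of these libraries already known, among them the fall of PER1 with siGOLM1-2 against the control and its unequal level among the control libraries. Differences of these genes from the control are therefore given as a description, without a p-value. All 10 passed the filter on low counts.

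The libraries were made from A549, an established cell line of human lung adenocarcinoma. Cells received one of 3 siRNAs at 50 nM by reverse transfection with a lipid reagent and were harvested at 72 h. Each group holds 4 libraries, numbered as biological replicates in the labels: a non-targeting control, siGOLM1-1 and siGOLM1-2. Both siGOLM1-1 and siGOLM1-2 are directed at GOLM1, a gene for a Golgi membrane protein. All groups share the cell line, the transfection reagent, the medium with serum and the time, and no untransfected cells were analysed here. The model is 1 cell line in culture and 1 time point, so the phase of any rhythm was not measured. The labels do not say whether the cultures were synchronised.

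The core clock is a loop of transcription and repression. ARNTL, also called BMAL1, and CLOCK bind E-boxes as a pair and drive the PER and CRY genes, whose proteins return to the nucleus and repress the pair. In a second loop the same pair drives NR1D1 and NR1D2, the REV-ERB receptors, which repress ARNTL through RORE sites. DBP is an output factor that acts on D-boxes, PER genes among its targets. In airway epithelial cells, clock genes are known to respond to glucocorticoids, and PER1 is a textbook target of the glucocorticoid receptor.

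Promoters were read from RefSeq, build GRCh38.p14, as 250 bases before to 50 bases after each annotated start, and all 10 genes matched, with 15 promoters. Those below belong to PER1, PER3 and NR1D2, the 3 members with the widest range over the control libraries, and to ARNTL, on which the REV-ERB receptors act. PER3, NR1D2 and ARNTL each have 2 annotated promoters, of which the one with a match to a motif is shown. Capitals mark an E-box (CACGTG), a D-box (TTANGTAA, N being any base) or a RORE (A, any 2 bases, T, any base, then GGTCA), searched on both strands. All are written 5′ to 3′ on the strand of the gene.
PER1, chr17:8152355-8152654, minus strand: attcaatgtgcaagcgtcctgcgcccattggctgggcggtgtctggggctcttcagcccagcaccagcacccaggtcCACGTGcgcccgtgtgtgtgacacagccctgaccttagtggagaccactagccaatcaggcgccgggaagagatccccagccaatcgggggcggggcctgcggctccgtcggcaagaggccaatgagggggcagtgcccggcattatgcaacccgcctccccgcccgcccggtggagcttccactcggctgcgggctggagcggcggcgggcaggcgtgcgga
PER3, chr1:7784041-7784340, plus strand: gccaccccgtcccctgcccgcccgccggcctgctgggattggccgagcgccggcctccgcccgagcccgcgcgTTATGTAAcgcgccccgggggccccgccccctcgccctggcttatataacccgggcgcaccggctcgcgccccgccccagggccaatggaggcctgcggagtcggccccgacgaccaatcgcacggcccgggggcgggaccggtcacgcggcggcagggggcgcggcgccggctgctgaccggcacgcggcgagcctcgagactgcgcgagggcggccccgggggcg
NR1D2, chr3:23945871-23946170, plus strand: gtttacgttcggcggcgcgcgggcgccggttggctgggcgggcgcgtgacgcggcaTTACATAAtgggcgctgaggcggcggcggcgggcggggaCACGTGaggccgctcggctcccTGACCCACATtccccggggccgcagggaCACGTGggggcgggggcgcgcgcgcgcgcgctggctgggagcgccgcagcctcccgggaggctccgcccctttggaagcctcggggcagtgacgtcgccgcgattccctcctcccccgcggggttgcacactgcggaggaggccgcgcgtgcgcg
ARNTL, chr11:13277540-13277839, plus strand: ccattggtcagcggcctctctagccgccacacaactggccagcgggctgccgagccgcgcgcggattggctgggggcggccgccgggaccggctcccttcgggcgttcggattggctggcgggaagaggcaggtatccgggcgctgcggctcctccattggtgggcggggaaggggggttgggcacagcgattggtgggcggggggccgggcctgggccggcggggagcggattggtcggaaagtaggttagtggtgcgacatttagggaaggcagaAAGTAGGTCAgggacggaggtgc

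The PER1 promoter held 1 E-box, and the printed NR1D2 promoter held 2 E-boxes, a D-box and a RORE with no overlap between them. The printed PER3 promoter held a D-box and the printed ARNTL promoter a RORE. The other promoter of each of PER3, NR1D2 and ARNTL held no match to any of the 3 motifs. Of the 15 promoters, 2 held an E-box, 3 a D-box and 3 a RORE. Over all 35116 RefSeq promoters of that length, an E-box was found in 7.26%, a D-box in 2.18% and a RORE in 2.09%. The matches describe letters and are not evidence of binding, and a promoter without a match says only that these letters are not in its window.

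GOLM1 itself checks the labels. It stood at 344 to 378 CPM in the control libraries, at 37.5 to 38.9 CPM with siGOLM1-1 and at 44.5 to 53.4 CPM with siGOLM1-2. CPM give the count per M of the scaled library total, computed here from the raw counts. GOLM1 was at a log2 fold change of -3.25 (SE 0.07) with siGOLM1-1 and -2.95 (SE 0.07) with siGOLM1-2. Total counts ran from 41.62 to 71.34 M per library. The epithelial markers were present in all groups. KRT8 stood at 3200 to 4440 CPM in the control, 1630 to 2140 with siGOLM1-1 and 3340 to 3550 with siGOLM1-2. In the same order, KRT18 stood at 1430 to 2150, 825 to 974 and 1470 to 1640 CPM. KRT19 stood at 64.5 to 77.7, 51.5 to 142 and 155 to 331 CPM. CDH1 stood at 96.7 to 137 CPM over all libraries, and the leukocyte marker PTPRC reached at most 0.0403 CPM. The fibroblast marker COL1A1, which tumour lines can also express, stood at 32.2 to 70.4 CPM in the control, 48.1 to 92.7 with siGOLM1-1 and 21.3 to 29.7 with siGOLM1-2, and its part in the results was not tested.

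The control libraries fell into 2 pairs, replicates 1 and 2 and replicates 3 and 4, and several clock genes differed between these pairs. The labels name no batch for them. The comparisons of the members with the control were therefore computed against all 4 control libraries and against each pair alone. In bulk RNA of this kind, fewer cells with a transcript and less transcript per cell cannot be told apart.

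**Figure D1:**
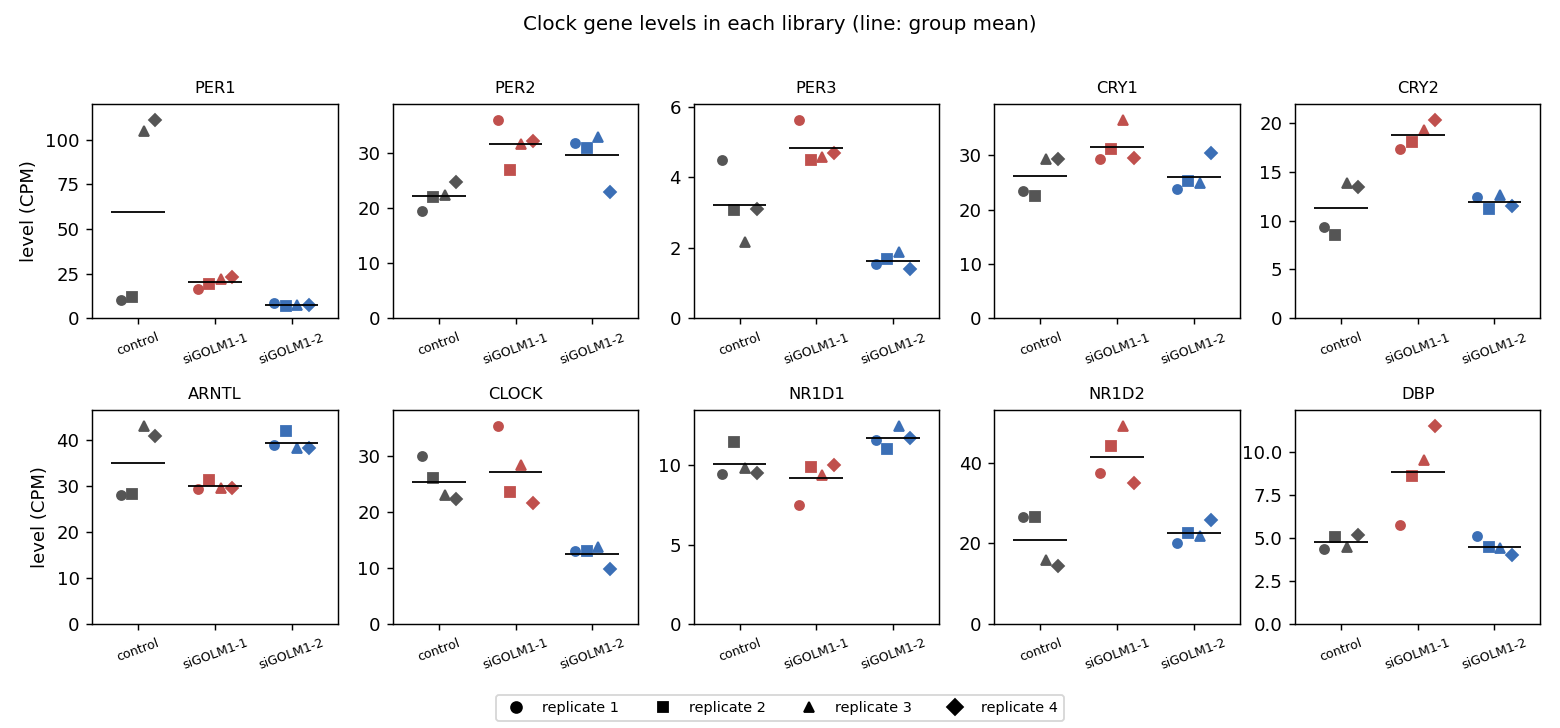
Level of each clock gene in CPM (vertical axes, from 0) in the 12 libraries, by group; each point is 1 library, its shape gives the replicate number and the line is the mean of 4. PER1 in control replicates 3 and 4 lies at 105 and 111 CPM, above all other libraries.

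The activators differed from each other: CLOCK was lower in every siGOLM1-2 library, and ARNTL passed the threshold with neither siRNA. In control replicates 1 to 4, CLOCK, the histone acetyltransferase partner in the activator pair, stood at 29.9, 26, 23 and 22.3 CPM. It stood at 35.4, 23.5, 28.3 and 21.6 CPM with siGOLM1-1 and at 13.1, 13.1, 13.8 and 9.78 CPM with siGOLM1-2. The siGOLM1-2 libraries lay below every other library, while the siGOLM1-1 libraries spread across the control range. The log2 fold change of CLOCK was -1.02 (SE 0.16, n = 4 per group) with siGOLM1-2 and 0.10 (SE 0.15) with siGOLM1-1. With siGOLM1-2 it was -1.17 against control replicates 1 and 2 and -0.85 against replicates 3 and 4. The direction with siGOLM1-1 turned to -0.04 against control replicates 1 and 2 and to -0.05 without siGOLM1-1 replicate 1.

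ARNTL, the partner of CLOCK in the activator pair, stood at 28.1, 28.3, 43.2 and 40.9 CPM in control replicates 1 to 4. It stood at 29.5, 31.3, 29.7 and 29.7 CPM with siGOLM1-1 and at 38.9, 42.1, 38.4 and 38.3 CPM with siGOLM1-2. The siGOLM1-1 libraries lay below the upper control pair, and the siGOLM1-2 libraries lay above the lower one. Against all controls ARNTL was at -0.23 (SE 0.12) with siGOLM1-1 and at 0.17 (SE 0.12) with siGOLM1-2 on the log2 scale. Against control replicates 1 and 2 the values were 0.09 and 0.48, and against replicates 3 and 4 they were -0.47 and -0.08, so the direction rested on the pair. Without control replicate 1, ARNTL with siGOLM1-1 was at -0.32 and past the threshold.

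The log2 ratio of ARNTL to CLOCK counts, which no scaling of libraries touches, was -0.09, 0.13, 0.91 and 0.87 in control replicates 1 to 4. It ran from -0.26 to 0.46 with siGOLM1-1 and from 1.48 to 1.97 with siGOLM1-2. Every siGOLM1-2 library lay above every other library.

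Among the repressors, PER1 had the widest spread of the 10 genes. Its level was 10.4, 11.8, 105 and 111 CPM in control replicates 1 to 4. It was 16.2, 19.2, 21.9 and 23.3 CPM with siGOLM1-1 and 8.71, 6.78, 7.18 and 7.39 CPM with siGOLM1-2. Control replicates 3 and 4 averaged 108 CPM against 11.1 CPM in replicates 1 and 2, a 9.74-fold difference within 1 group. Of the 17532 genes tested, 77 (0.439%) had a range over the control libraries at least as wide as the 3.41 of PER1 on the log2 scale, and the median range was 0.36.

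The siGOLM1-1 libraries of PER1 lay above the lower control pair and below the upper one. The log2 fold change with siGOLM1-1 was -1.57 (SE 0.62, not past the threshold) against all controls, 0.86 against replicates 1 and 2 and -2.41 against replicates 3 and 4. It was past the threshold against each pair, in opposite directions, and also without control replicate 1 (-1.92) or 2 (-1.90). The siGOLM1-2 libraries lay below all control libraries. Their log2 fold change was -2.99 (SE 0.66), with -0.56 against replicates 1 and 2 and -3.83 against replicates 3 and 4. The direction held against both pairs, while the size moved from 1.48-fold to 14.2-fold lower.

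**Figure D2:**
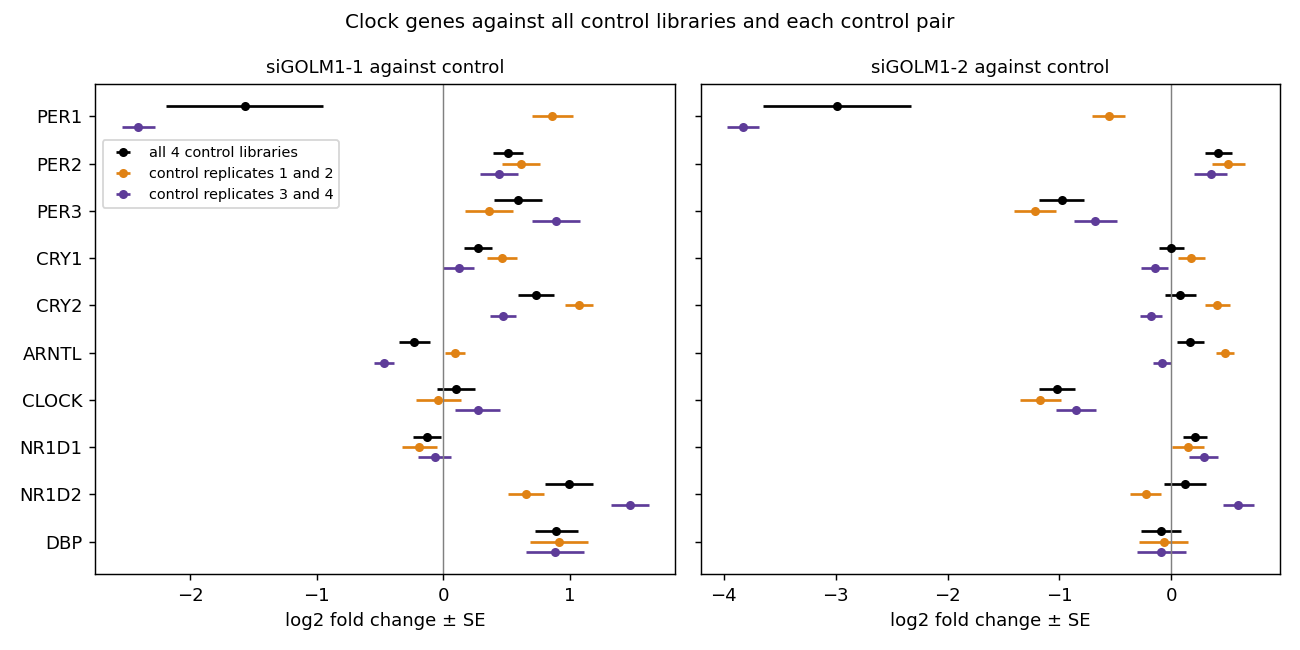
Log2 fold change of each clock gene (horizontal axis, bars are SE) with siGOLM1-1 (left) and siGOLM1-2 (right), against all 4 control libraries and against each pair. PER1 with siGOLM1-1 lies at 0.86 against one pair and at -2.41 against the other, while DBP lies at 0.91 and 0.88.

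Genes that respond to glucocorticoids were read beside PER1 because PER1 is one of them. Of 6 such genes, 5 were higher in both of control replicates 3 and 4 than in both of replicates 1 and 2. The exception, SGK1, was named after its values were seen and was 0.719-fold as high. The share of all genes with such a split was not computed, so nothing is read from the count of 5. FKBP5, which encodes a chaperone partner of that receptor, stood at 22.8, 22.6, 221 and 225 CPM in the control, a 9.83-fold difference between the pairs. TSC22D3, also known as GILZ, differed 3.38-fold and KLF9, a zinc finger factor, 3.64-fold. The receptor gene NR3C1 was 0.902-fold as high in replicates 3 and 4 as in replicates 1 and 2.

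In the knockdown libraries these genes differed in where they stood against the control pairs. FKBP5 stood at 14.9 to 19.1 CPM with siGOLM1-1 and at 11.4 to 13.2 CPM with siGOLM1-2, below all control libraries in both groups. TSC22D3 stood at 17.9 to 21.4 CPM and at 23.8 to 27.5 CPM, and KLF9 at 11 to 13.8 CPM and at 8.76 to 10.3 CPM, between the control pairs in both groups. The other 3 genes of the list are named here after their values were seen. SGK1, a kinase gene, stood at 57.3 to 61.3 CPM with siGOLM1-1 and at 38 to 43.1 CPM with siGOLM1-2, above every control library (25.5 to 36.7 CPM). DUSP1, a phosphatase gene, stood at 157 to 299 CPM in the control, at 201 to 236 CPM with siGOLM1-1, between the control pairs, and at 127 to 140 CPM with siGOLM1-2, below all control libraries. ZBTB16, a zinc finger factor, stood at 0, 0, 2.9 and 3.04 CPM in the control and reached at most 0.0202 CPM in the knockdown libraries. The part of glucocorticoid signalling in the PER1 values was not tested, and the labels name no glucocorticoid.

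**Figure D3:**
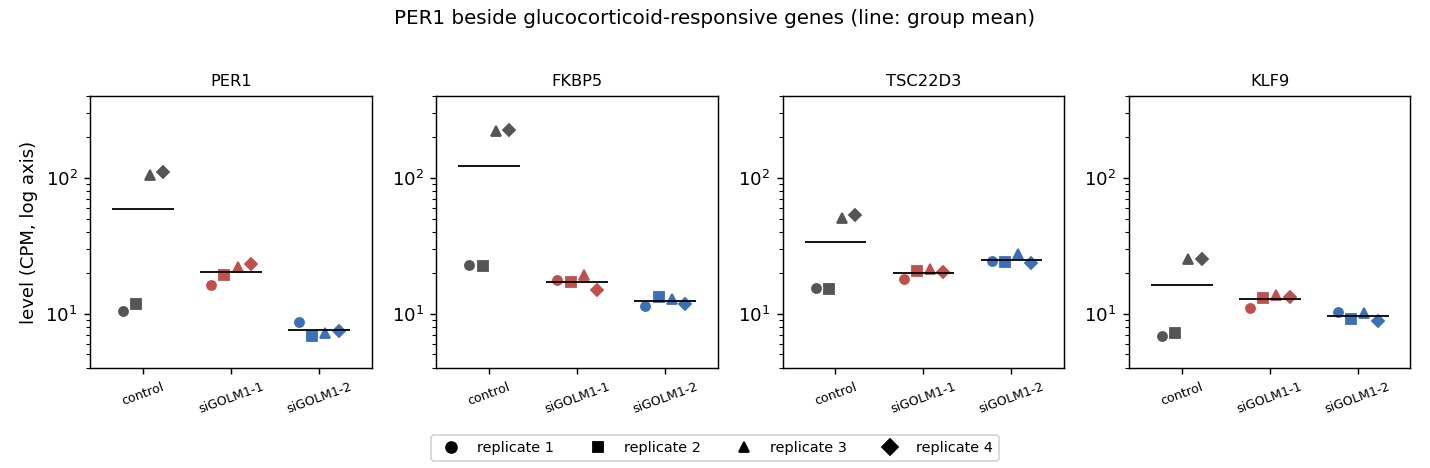
PER1 beside FKBP5, TSC22D3 and KLF9 in CPM (log axis) in the 12 libraries; each point is 1 library, shapes give the replicate number and lines are group means. In all 4 genes, control replicates 3 and 4 lie above replicates 1 and 2 and above the knockdown libraries.

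PER2, a PER gene in which inherited mutations advance sleep phase, was higher with both siRNAs. It stood at 19.5, 22, 22.4 and 24.6 CPM in the control, at 35.9, 26.8, 31.6 and 32.1 CPM with siGOLM1-1 and at 31.8, 30.8, 32.9 and 22.9 CPM with siGOLM1-2. The siGOLM1-1 libraries lay above all control libraries, and siGOLM1-2 replicate 4 fell within the control range. PER2 was at 0.51 (SE 0.12) on the log2 scale with siGOLM1-1 and 0.42 (SE 0.12) with siGOLM1-2. With siGOLM1-2 it was 0.51 against control replicates 1 and 2 and 0.35 against replicates 3 and 4, the second below the threshold. PER2 was the 1 member past the threshold with both siRNAs in the same direction.

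PER3, the third PER gene and the lowest of the 10 per length, went in opposite directions. It stood at 4.48, 3.08, 2.16 and 3.1 CPM in the control, at 5.62, 4.48, 4.58 and 4.68 CPM with siGOLM1-1 and at 1.55, 1.69, 1.88 and 1.39 CPM with siGOLM1-2. The siGOLM1-2 libraries lay below all control libraries, while the lowest siGOLM1-1 library matched the highest control library within rounding. PER3 was at 0.59 (SE 0.19) with siGOLM1-1 and -0.98 (SE 0.20) with siGOLM1-2 on the log2 scale. Against control replicates 1 and 2 it was 0.36 with siGOLM1-1, not past the threshold, and -1.22 with siGOLM1-2. Against replicates 3 and 4 it was 0.89 and -0.68.

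Of the cryptochromes, the partners of PER in repression, CRY2 was higher with siGOLM1-1 and CRY1 did not pass the threshold. CRY2 stood at 9.34, 8.56, 13.9 and 13.4 CPM in the control, at 17.3, 18.1, 19.3 and 20.3 CPM with siGOLM1-1 and at 12.4, 11.2, 12.6 and 11.5 CPM with siGOLM1-2. All siGOLM1-1 libraries lay above all others, and the siGOLM1-2 libraries lay between the control pairs. On the log2 scale CRY2 was at 0.73 (SE 0.14) with siGOLM1-1, at 1.07 and 0.47 against the 2 pairs in order, and 0.08 (SE 0.14) with siGOLM1-2, at 0.41 and -0.18.

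CRY1, the stronger repressor of the cryptochromes in the textbook account, stood at 22.5 to 29.4 CPM in the control, at 29.3 to 36.5 CPM with siGOLM1-1 and at 23.8 to 30.5 CPM with siGOLM1-2. The groups overlapped. CRY1 was at a log2 fold change of 0.27 (SE 0.11) with siGOLM1-1 and 0.00 (SE 0.11) with siGOLM1-2, neither past the threshold. With siGOLM1-1 it was 0.46 and past the threshold against control replicates 1 and 2, and 0.12 against replicates 3 and 4. It was also past the threshold without control replicate 3 or 4 (0.33 each) or siGOLM1-2 replicate 4 (0.27).

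Of the REV-ERB receptors, NR1D2 (REV-ERB beta) was higher with siGOLM1-1, and NR1D1 (REV-ERB alpha) did not pass the threshold. NR1D2 stood at 26.6, 26.5, 15.9 and 14.4 CPM in the control, at 37.6, 44.3, 49.3 and 35.1 CPM with siGOLM1-1 and at 20.2, 22.7, 21.9 and 25.9 CPM with siGOLM1-2. The siGOLM1-1 libraries lay above all others, and the siGOLM1-2 libraries lay between the control pairs. NR1D2 was at 0.99 (SE 0.19) on the log2 scale with siGOLM1-1, at 0.65 against replicates 1 and 2 and 1.47 against replicates 3 and 4. With siGOLM1-2 it was 0.12 (SE 0.19), at -0.23 and 0.60, so the direction rested on the pair. The control pairs differed 1.75-fold, with replicates 1 and 2 higher, the reverse of PER1, ARNTL and CRY2.

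NR1D1 stood at 9.46 to 11.5 CPM in the control, at 7.48 to 10 CPM with siGOLM1-1 and at 11 to 12.5 CPM with siGOLM1-2. Its log2 fold change was -0.13 (SE 0.11) with siGOLM1-1 and 0.21 (SE 0.11) with siGOLM1-2. Without control replicate 2 the latter was 0.30 and past the threshold. In GENCODE 29, 9.49% of the exon bases of NR1D1 overlap THRA on the opposite strand. The strand setting of the counting is not given in the sources used here, so reads of the overlap could be counted for either gene. THRA stood at 53.7, 56, 94.9 and 93.2 CPM in the control and at 40.6 to 57.4 CPM in the knockdown libraries.

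The log2 ratio of ARNTL to NR1D2 counts was 0.08, 0.1, 1.44 and 1.51 in control replicates 1 to 4. It was -0.35, -0.5, -0.73 and -0.24 with siGOLM1-1 and 0.95, 0.89, 0.81 and 0.56 with siGOLM1-2. The siGOLM1-1 libraries lay below all others, and the siGOLM1-2 libraries lay between the control pairs.

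**Figure D4:**
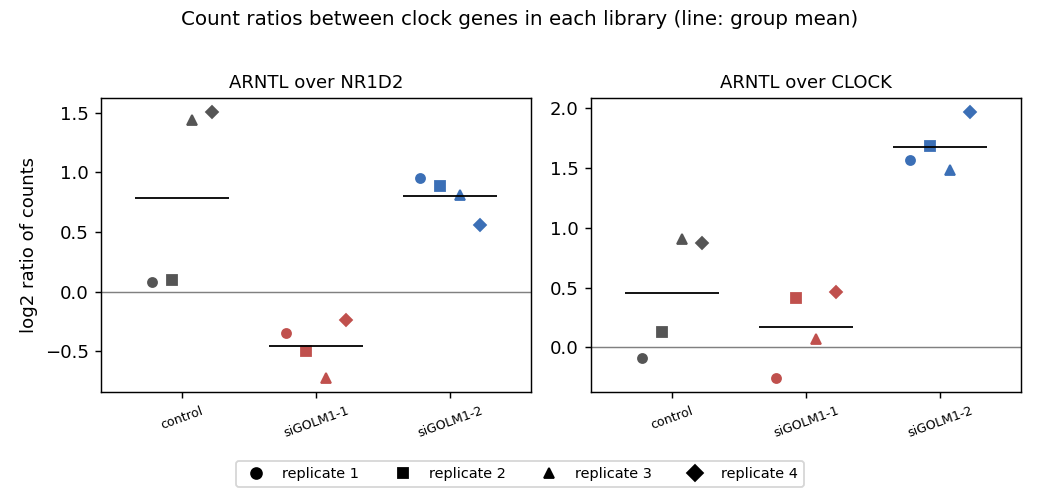
Log2 ratio of counts (vertical axis) of ARNTL over NR1D2 and of ARNTL over CLOCK in the 12 libraries; each point is 1 library and lines are group means. ARNTL over NR1D2 is below 0 in the 4 siGOLM1-1 libraries, and ARNTL over CLOCK is 1.48 or more in the 4 siGOLM1-2 libraries.

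DBP, the output factor, was higher with siGOLM1-1 and did not pass the threshold with siGOLM1-2. It stood at 4.34, 5.07, 4.49 and 5.17 CPM in the control, at 5.76, 8.6, 9.5 and 11.5 CPM with siGOLM1-1 and at 5.12, 4.47, 4.38 and 3.99 CPM with siGOLM1-2. All siGOLM1-1 libraries lay above all others, with replicate 1 the closest to the control. The log2 fold change was 0.89 (SE 0.17) with siGOLM1-1 and -0.09 (SE 0.18) with siGOLM1-2. The siGOLM1-1 value was 0.91 against control replicates 1 and 2 and 0.88 against replicates 3 and 4. Of its exon bases, 10.1% overlap SPHK2 on the opposite strand, which stood at 32.4 to 34.6 CPM in the control, 26.5 to 31.1 with siGOLM1-1 and 20.3 to 25.9 with siGOLM1-2.

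PER3 overlaps UTS2 over 10.7% of its exon bases, and UTS2 reached at most 0.0201 CPM. CLOCK overlaps TMEM165 over 0.646% of its exon bases.

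Counted at an adjusted p under 0.05, 5 members were higher, 0 lower and 5 not called with siGOLM1-1, while 23.7% of all genes tested were higher and 23.8% lower. At an unadjusted p under 0.05, 1 member, PER1, was lower with siGOLM1-1, and CRY1 joined those higher. The share of all genes at that threshold was not computed. DESeq2 as run here called 1 member lower, again PER1, beside 4189 of all 17532 genes. The authors' deposited table did not call PER1 with siGOLM1-1. With siGOLM1-2, 1 member was higher, 3 lower and 6 not called, while 21.8% of all genes were higher and 23.2% lower. The members were named with these comparisons known, and the comparisons share the control libraries, so nothing is read from the counts. The median log2 fold change of the members was 0.39 with siGOLM1-1 and 0.04 with siGOLM1-2, against -0.01 for all genes tested in each. The authors' deposited tables gave all 10 members the same call in both comparisons.

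By call, 3 members (CRY2, NR1D2 and DBP) passed with siGOLM1-1 alone, 2 (PER1 and CLOCK) with siGOLM1-2 alone, and 3 (CRY1, ARNTL and NR1D1) with neither. Over all genes tested, these shares were 22.4%, 19.9% and 32.6%, and 18% were called with both siRNAs in the same direction and 7.11% in opposite directions. Members called in the same direction against both control pairs were PER2, CRY2, NR1D2 and DBP with siGOLM1-1 and PER1, PER3 and CLOCK with siGOLM1-2. Of the 18059 genes tested against both pairs, 28.2% were so called with siGOLM1-1 and 26% with siGOLM1-2. Nothing is read from these counts, since the members were named with the comparisons known.

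The siRNAs were then compared with each other, a contrast that holds no control library. It does share the knockdown libraries and the estimate of spread with the comparisons above, so it adds no independent support. The members were chosen with values of these libraries known. Their counts and adjusted p-values in this contrast are therefore a description, and nothing is concluded from them. By edgeR's quasi-likelihood test with Benjamini-Hochberg adjustment, 5 members were higher with siGOLM1-1, 2 were lower and 3 were not called, while 27.9% of all genes tested were higher and 26.5% lower. The median of the members was 0.76 on the log2 scale, against 0.01 for all genes, and the median size 0.76 against 0.40.

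PER3 differed most among the members given with an adjusted p, at 1.57 (SE 0.19, edgeR adjusted p = 1.32e-05). CLOCK was higher with siGOLM1-1 by 1.13 on the log2 scale (SE 0.16, edgeR adjusted p = 3.99e-05), DBP by 0.97 (SE 0.17, edgeR adjusted p = 0.000318) and NR1D2 by 0.87 (SE 0.19, edgeR adjusted p = 0.00171). CRY2 was higher by 0.65 (SE 0.14, edgeR adjusted p = 0.0013). All 4 siGOLM1-1 libraries lay above all 4 siGOLM1-2 libraries for these 5 genes. The share of all genes with no overlap between these groups was not computed, so nothing about the members is read from it here or below.

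ARNTL was lower with siGOLM1-1 than with siGOLM1-2, at -0.39 (SE 0.12, edgeR adjusted p = 0.0158), and so was NR1D1, at -0.34 (SE 0.11, edgeR adjusted p = 0.0142), again with no overlap between libraries. CRY1 (0.28, SE 0.11, edgeR adjusted p = 0.0527) and PER2 (0.09, SE 0.12, edgeR adjusted p = 0.529) were not called. Over the alternatives the edgeR or DESeq2 adjusted p of CRY1 ran from 0.0157, without siGOLM1-2 replicate 4, to 0.249, with library totals. PER1 was at 1.42 (SE 0.64), and all siGOLM1-1 libraries lay above all siGOLM1-2 libraries. That SE carries the control spread, since the fit shares it over the groups. PER1 did not pass the threshold in that fit. It passed it in the fit over the knockdown groups alone (1.39, SE 0.13) and without control replicate 1 or 2 (1.42 each).

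Levels of different genes were compared per kilobase of exon, in CPM per kb. The length was the union of all annotated exons of a gene, 6.54 kb for DBP and 2.77 kb for NR1D1. Lengths of the transcripts present were not measured, so the ranks rest on that choice. In the control, PER1 had the highest mean at 8.51 ± 8.0 (SD, n = 4), with libraries from 1.49 to 15.9, a range that met those of all other members but DBP and PER3. ARNTL (5.22 ± 1.2) and CRY1 (5.17 ± 0.73) followed and overlapped, as did NR1D1 (3.64 ± 0.35), NR1D2 (3.58 ± 1.1) and PER2 (3.22 ± 0.30). The range of NR1D2, 2.47 to 4.57, also met those of ARNTL, CRY1 and CLOCK. CLOCK (2.15 ± 0.29) and CRY2 (1.82 ± 0.44) overlapped as well. DBP (0.729 ± 0.063) and PER3 (0.396 ± 0.12) lay lowest and apart from each other.

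With siGOLM1-1, NR1D2 had the highest mean at 7.14 ± 1.1 CPM per kb, which overlapped CRY1 at 6.25 ± 0.65. PER2 (4.59 ± 0.54) and ARNTL (4.46 ± 0.12) overlapped next, above NR1D1 (3.32 ± 0.43), CRY2 (3.02 ± 0.21) and PER1 (2.88 ± 0.44). With siGOLM1-2, ARNTL came first at 5.86 ± 0.27 and overlapped CRY1 at 5.16 ± 0.60. PER1 (1.07 ± 0.12) and CLOCK (1.06 ± 0.15) stood level there, above DBP at 0.686 ± 0.072. PER3 was lowest in all groups, at 0.597 ± 0.065 with siGOLM1-1 and 0.201 ± 0.026 with siGOLM1-2.

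Other genes of the pathway were read from a list of 31 by role, of which 30 passed the filter and RORB did not. With siGOLM1-1, 7 were higher, 10 lower and 13 not called, beside 23.7% higher and 23.8% lower over all genes tested. With siGOLM1-2, 7 were higher, 11 lower and 12 not called, beside 21.8% and 23.2%. Between the siRNAs, 10 were higher with siGOLM1-1, 11 lower and 9 not called, beside 27.9% and 26.5%. These shares also stand behind the counts by role, and nothing particular to the list is read from either. Of the 17 calls with siGOLM1-1, 10 were made in the same direction against both control pairs, and of the 18 with siGOLM1-2, 11 were. Of the 18059 genes tested against both pairs, 28.2% were so called with siGOLM1-1 and 26% with siGOLM1-2. These shares are of all genes, called against all 4 control libraries or not, and nothing is read from the counts. The adjusted p-values of these genes are from edgeR with 4 libraries per group, and the ranges over alternatives include DESeq2 and fits with fewer libraries. The genes given below with p-values, FBXW11 apart, had the smallest p of their role or a call of at least 1 in size. That choice used these same comparisons, so the sizes and p-values are those of selected genes.

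**Figure D5:**
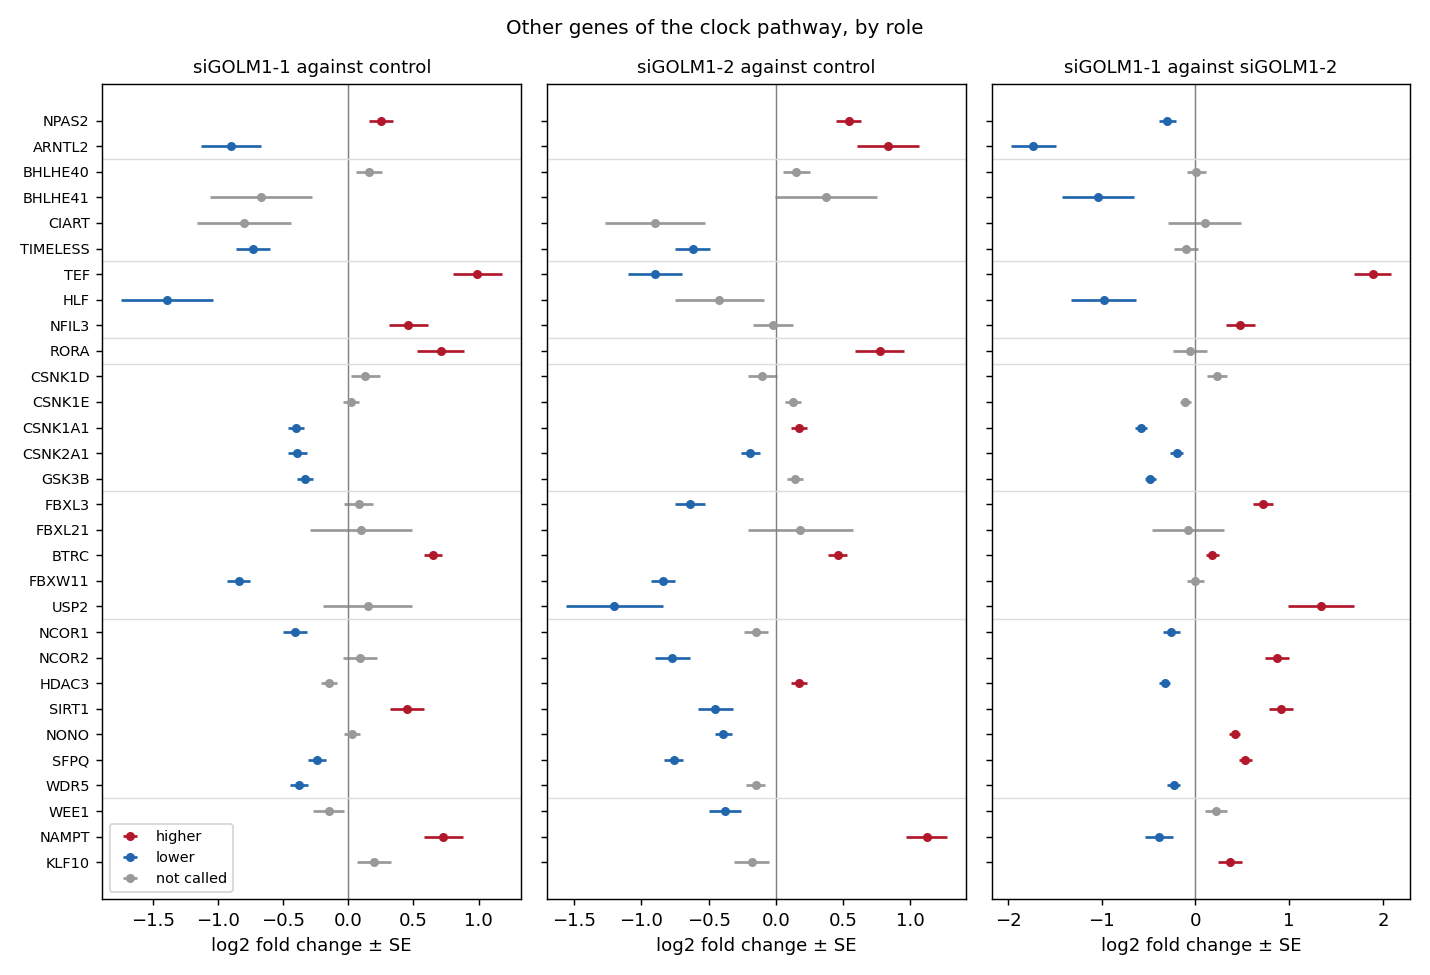
Log2 fold change (horizontal axes, bars are SE) of 30 other clock pathway genes in the 3 comparisons, grouped by role with lines between roles and coloured by call at an adjusted p under 0.05. ARNTL2 and TEF lie on opposite sides of 0 with the 2 siRNAs.

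Both activator paralogs were called in each comparison, although NPAS2, a paralog of CLOCK, was not called with siGOLM1-1 against control replicates 1 and 2 (0.19). ARNTL2, a paralog of ARNTL, stood at 29.5 to 37.6 CPM in the control, at 16.2, 16.9, 27.4 and 12.8 CPM with siGOLM1-1 and at 49.8, 53.2, 48.7 and 90.9 CPM with siGOLM1-2. The groups did not overlap. It fell by 0.90 on the log2 scale with siGOLM1-1 (SE 0.23, adjusted p = 0.00658) and rose by 0.83 with siGOLM1-2 (SE 0.23, adjusted p = 0.0107), and the siRNAs differed by -1.73 (SE 0.24, adjusted p = 4.36e-05). Without siGOLM1-2 replicate 4 its rise was 0.56. Against one control pair each call was lost: the fall at -0.76 against replicates 3 and 4 and the rise at 0.71 against replicates 1 and 2.

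Of the PAR bZIP factors, which share D-boxes with DBP, TEF moved in opposite directions and HLF did not follow it. TEF stood at 5.68, 5.55, 5.46 and 5.29 CPM in the control, at 6.7, 12.6, 11.5 and 13 CPM with siGOLM1-1 and at 2.34, 2.89, 2.66 and 3.86 CPM with siGOLM1-2. The groups did not overlap, and siGOLM1-1 replicate 1 was closest to the control, as it was for DBP. TEF rose by 0.99 (SE 0.19, adjusted p = 0.000806) with siGOLM1-1 and fell by 0.90 (SE 0.20, adjusted p = 0.00216) with siGOLM1-2. The siRNAs differed by 1.89 (SE 0.20, adjusted p = 2.86e-06), and both calls held against each control pair.

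HLF stood at 1.26, 1.78, 4.09 and 3.92 CPM in the control, at 0.697 to 1.44 CPM with siGOLM1-1 and at 1.82 to 2.4 CPM with siGOLM1-2. Its fall with siGOLM1-1 (-1.39, SE 0.35, adjusted p = 0.00462) was -0.52 and not called against control replicates 1 and 2.

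Of the other repressors, TIMELESS, a replication fork protein and relative of the fly clock gene, fell with both siRNAs, by 0.73 (SE 0.13, adjusted p = 0.000437) and by 0.62 (SE 0.13, adjusted p = 0.00152), and was called against each control pair. With all 4 control libraries in the fit, BHLHE41, a repressor that competes for E-boxes, was called between the siRNAs alone (-1.04, SE 0.38, adjusted p = 0.0349), with 0.741 to 1.62 CPM against 2.09 to 2.6 CPM. In the control it stood at 2.36, 3.03, 0.698 and 0.946 CPM, and the direction rested on the pair: siGOLM1-1 was at -1.28 against replicates 1 and 2 and at 0.43 against replicates 3 and 4, and siGOLM1-2 at -0.25 and 1.47. Of these values, -1.28 and 1.47 were called. The call between the siRNAs was lost without a filter and without any 1 of 7 knockdown libraries (-1.07 to -0.89), and its adjusted p over all alternatives ran from 0.00168 to 0.095.

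The ROR receptors act on RORE sites against the REV-ERB receptors. RORA rose with both siRNAs, by 0.71 (SE 0.18, adjusted p = 0.00618) and by 0.77 (SE 0.18, adjusted p = 0.00382), from 0.92 to 1.44 CPM in the control to 1.49 to 2.21 CPM in the knockdown libraries. With siGOLM1-1 it was 0.53 and not called against control replicates 3 and 4, while with siGOLM1-2 it was called against each pair, at 0.99 and 0.60.

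Kinases and ubiquitin ligases set the stability of PER and CRY proteins. Of 5 kinases, 3 fell with siGOLM1-1, and with siGOLM1-2 1 rose and 1 fell. CSNK1A1, casein kinase 1 alpha, stood at 96.1 to 100 CPM in the control, 66.7 to 78.1 CPM with siGOLM1-1 and 105 to 116 CPM with siGOLM1-2. It fell by 0.40 (SE 0.06, adjusted p = 0.000172) with siGOLM1-1. Its rise with siGOLM1-2, 0.17 (SE 0.06, adjusted p = 0.0408), was not called against either control pair, nor without any 1 of the control libraries or without siGOLM1-2 replicate 1, 2 or 4, and its adjusted p over all alternatives ran from 0.00462 to 0.15.

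Of 5 ligase subunit and deubiquitinase genes, 1 rose and 1 fell with siGOLM1-1, and 1 rose and 3 fell with siGOLM1-2. BTRC, a ligase subunit that acts on PER proteins, rose with both siRNAs, by 0.65 (SE 0.07, adjusted p = 4.36e-06) and by 0.46 (SE 0.07, adjusted p = 9.63e-05), and was called against each control pair. FBXW11, another ligase subunit of the list, named after its values were seen, went the other way. It was at -0.84 (SE 0.09, adjusted p = 5.94e-06) with siGOLM1-1 and at -0.84 (SE 0.09, adjusted p = 7.92e-06) with siGOLM1-2, and was called against each control pair. USP2, a deubiquitinase, fell with siGOLM1-2 (-1.20, SE 0.36, adjusted p = 0.014), at 0.548 to 1.21 CPM against 1.32 to 2.6 CPM in the control, but was not called against control replicates 1 and 2 (-0.76).

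Among 7 corepressors and PER complex proteins, 1 rose and 3 fell with siGOLM1-1, and 1 rose and 4 fell with siGOLM1-2. SFPQ, an RNA-binding protein of the PER complex, stood at 323 to 360 CPM in the control and at 196 to 208 CPM with siGOLM1-2. It fell by 0.76 (SE 0.07, adjusted p = 2.58e-06) with siGOLM1-2 and by 0.24 (SE 0.07, adjusted p = 0.0149) with siGOLM1-1, the latter not called without control replicate 2 (-0.20) or against replicates 3 and 4 (-0.21).

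Of the output genes, NAMPT, the rate-limiting enzyme of NAD salvage, rose with both siRNAs. It stood at 119, 126, 178 and 169 CPM in the control, at 224 to 268 CPM with siGOLM1-1 and at 280 to 411 CPM with siGOLM1-2. Its log2 fold change was 0.73 (SE 0.15, adjusted p = 0.00122) with siGOLM1-1 and 1.12 (SE 0.15, adjusted p = 5.4e-05) with siGOLM1-2. Both were called against each control pair, at 1.00 and 1.39 against replicates 1 and 2 and at 0.51 and 0.91 against replicates 3 and 4.

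Genes with the pattern most like a member were ranked over the 12 libraries by the root mean square difference of log2 CPM, each gene centred on its own mean, among 13852 other genes of at least 1 CPM. For PER1 these were CPB2 (0.31), SCNN1A (0.52) and FKBP5 (0.58), beside a value of 1.32 for PER1 against a flat line. CPB2, a plasma carboxypeptidase, stood at 0.52, 0.457, 3.17 and 3.34 CPM in the control, and SCNN1A, a sodium channel subunit, at 12.2, 13.8, 203 and 215 CPM. Both showed the split of the control pairs that PER1 showed. The genes share the 12 libraries and that split. They were picked for likeness to PER1 over these libraries, so nothing is read from the shared split.

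For DBP the closest were ZNF385A (0.13), FAM211B (0.15) and DDR1 (0.15), beside 0.48 for DBP against a flat line. DDR1, a collagen receptor, stood at 126 to 146 CPM in the control, at 206, 242, 245 and 286 CPM with siGOLM1-1 and at 130 to 150 CPM with siGOLM1-2. For NR1D2 they were OSGIN2 (0.15), RP11-64D22.2 (0.17) and GCLM (0.17), beside 0.53. GCLM, the modifier subunit of glutathione synthesis, stood at 157, 151, 117 and 115 CPM in the control, at 269 to 337 CPM with siGOLM1-1 and at 136 to 146 CPM with siGOLM1-2. For both DDR1 and GCLM, all siGOLM1-1 libraries lay above all others, as for DBP and NR1D2. The genes were picked for likeness over these same libraries, so nothing is read from the shared pattern.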

How the data were processed

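RNA sequencing was analysed for 12 libraries of A549 cells in 3 groups of 4. Per the submitters' processing notes, the authors used bcl2fastq 2.20, STAR 2.7.3, the build hg19 and DESeq2 1.24.0. The read counter, annotation release and strand setting are not given in the sources used here. Per the labels' protocols, libraries came from a stranded mRNA kit.

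The authors deposited raw counts per gene, without normalization. Their deposited result tables hold, per the file headers, a log2 fold change and a p-value with an adjusted p-value. These tables were used only to compare calls, and other columns of those tables (the mean normalised signal and the test statistic, a score) were not used.

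Genes were filtered with filterByExpr (17532 of 57773 kept) and fitted with edgeR 4.0.16 in R 4.3.3 (TMM factors of 0.938 to 1.0588, robust quasi-likelihood, group as the only term, 9 residual degrees of freedom, common biological coefficient of variation 0.146). Calls were made at an adjusted p under 0.05 (Benjamini-Hochberg over all genes tested). SE are on the log2 scale. The computation was tested on simulated data. The members and lists were chosen with earlier results of these data known. Named genes were all members, GOLM1, pathway genes called with a log2 fold change of at least 1 in size, the smallest p of each role, 4 glucocorticoid genes, the 3 genes most like PER1, DBP and NR1D2, and overlapping neighbours. FBXW11, SIRT1, SGK1, DUSP1 and ZBTB16 were named besides, after their values were seen. FBXW11 and SIRT1 are not counted among the named pathway genes below. A listed pathway gene is not reported here and was left out of the list counts. CIART was matched by gene ID, the marker PECAM1 was not matched, and exon lengths came from GENCODE 29 by gene ID. ARNTL was found in RefSeq as BMAL1. Replicates were called biological in the labels, which do not say that they were separate cultures, so p-values measure the spread between these libraries. Within groups, all pairs of libraries differed by more than sampling noise (chi-square per degree of freedom 5.9 to 90). No column of another sample was used. The 20 alternatives covered DESeq2 1.42.0, library totals, filters, each library left out, each control pair, the replicate block and fits over 2 groups.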

Additional observations from a re-analysis of the deposited data

Results flagged for a closer look

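Within each group of 4 libraries, the highest or lowest value of the 10 members and 11 named pathway genes was compared with the rest, over 63 groups in all. Chance flags about 1 in 20 such groups. ARNTL stood at 31.3 CPM in siGOLM1-1 replicate 2, apart from 29.5 to 29.7 CPM in the other libraries of that group. CLOCK stood at 9.78 CPM in siGOLM1-2 replicate 4, below 13.1 to 13.8 CPM in the others. ARNTL2 stood at 90.9 CPM in the same siGOLM1-2 replicate 4, above 48.7 to 53.2 CPM.

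Of these members and pathway genes, 4 were called in opposite directions with the siRNAs and also differed between them in the direct edgeR test, siGOLM1-1 against siGOLM1-2 on the log2 scale. Of all genes tested, 7.11% did both. The pathway genes here were named by their calls, sizes or p in these same comparisons, so nothing is read from the count. PER3 was at 1.57, TEF at 1.89, ARNTL2 at -1.73 and CSNK1A1 at -0.58. The rise of CSNK1A1 with siGOLM1-2 was not called against either control pair. PER3 with siGOLM1-1 was not called against control replicates 1 and 2 (0.36). ARNTL2 was not called with siGOLM1-1 against replicates 3 and 4 (-0.76), nor with siGOLM1-2 against replicates 1 and 2 (0.71). SIRT1, a further gene of the pathway list named after its values were seen, also did both, at 0.91 between the siRNAs. SIRT1 was not called with siGOLM1-1 against replicates 1 and 2 (0.21), nor with siGOLM1-2 against replicates 3 and 4 (-0.14).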

How the results depend on the processing

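Over 580 values of the members under the alternatives, 528 kept direction and call, 2 lost the call, 28 gained it and 22 changed direction. For the 11 named pathway genes the counts were 581, 45, 4 and 8 of 638. Where direction changed, the cause was not tested. Against control replicates 1 and 2, siGOLM1-1 gave PER1 0.86, ARNTL 0.09 and CLOCK -0.04, and siGOLM1-2 gave CRY1 0.18, NR1D2 -0.23, BHLHE41 -0.25 and HLF 0.45. Against replicates 3 and 4, siGOLM1-1 gave BHLHE41 0.43 and USP2 -0.18, and siGOLM1-2 gave CRY2 -0.18 and ARNTL -0.08. Leaving out a library moved CLOCK with siGOLM1-1 between -0.05 (siGOLM1-1 replicate 1) and 0.20, and USP2 between -0.02 (control replicate 1 or siGOLM1-1 replicate 4) and 0.40. With siGOLM1-2 it moved CRY2 between -0.02 (control replicate 2; -0.01 without control replicate 1) and 0.19, NR1D2 between -0.02 (control replicate 4) and 0.28, and CRY1 between -0.09 and 0.05. Between the siRNAs it moved PER2 between -0.01 (siGOLM1-2 replicate 4) and 0.17, and RORA between -0.16 and 0.02. CRY1 with siGOLM1-2 was also 0.01 with DESeq2, 0.07 with library totals, 0 with at least 1 CPM in 4 libraries and 0 with the replicate block, and PER2 between the siRNAs was -0.04 with library totals. Members called lower with siGOLM1-1 numbered 0, and 1 with DESeq2, library totals or the 1 CPM filter, 2 against control replicates 3 and 4, and 0 to 2 when a library was left out (2 without control replicate 1 and 1 without control replicate 2). Members called higher with siGOLM1-2 numbered 1, and 2 with library totals, 3 against control replicates 1 and 2, and 1 to 2 when a library was left out (2 without control replicate 2). Pathway genes called higher with siGOLM1-2 numbered 7, and 4 without a filter or against control replicates 1 and 2. Those called lower between the siRNAs numbered 11, and 7 without a filter and 6 to 11 when a library was left out (6 without siGOLM1-1 replicate 4 and 7 without siGOLM1-2 replicate 2 or 4). Library totals moved the median of all genes to -0.06, 0.07 and -0.12 in the 3 comparisons and the share of higher calls from 51.2% to 37.4% between the siRNAs, and from 48.4% to 59.2% with siGOLM1-2. Replicate numbers were not taken to pair the libraries: of 12 same-numbered pairs, 3 correlated above 0.1 (range -0.2 to 0.35). Of the 12 libraries, 2 correlated best with their own number in both other groups. The number expected by chance was not computed, so a pairing is neither shown nor excluded. With the replicate block, PER1 was -1.12 with siGOLM1-1 and -2.49 with siGOLM1-2, and CRY1 was called with siGOLM1-1 (0.28) and between the siRNAs (0.28). Of the members, PER3 and DBP had the lowest mean CPM in each group, so counting error is largest for them in proportion to the level.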
